A study of Neurospora crassa with 30 samples.

Results

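The response of *Neurospora crassa* to sorbose was compared with its response to fructose by RNA-seq. The comparison takes the 3 samples whose labelled carbon source is sorbose and the 3 whose label is fructose, 6 of the 30 samples of a series that covers 10 carbon sources. All samples came from mycelia of the WT strain FGSC 2489, which carries no engineered mutation, and both groups are thus cultures of 1 strain. Each culture began with conidia that grew for 16 hrs at 25°C under constant light on 2% sucrose in VMM, a defined minimal medium. The mycelia were then washed free of sucrose and kept for 4 hrs in VMM with the single sugar. Sorbose and fructose were each given at 2 mM, so dose and time were matched and 1 pair of sugars was compared. The 2 sugars are ketohexoses of the same formula that differ in stereochemistry. Whether the replicates were grown on separate days is not given in the sources used here. The p-values and standard errors of the genes draw on the spread within all 10 carbon sources, not within these 6 samples alone.

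Fructose enters glycolysis after phosphorylation and is a good carbon source for most fungi, whereas sorbose is used poorly. In *Neurospora* research sorbose is best known as the sugar added to plating media to make colonies small and compact, since it shortens and branches hyphae, and it has long been linked with the synthesis of cell wall β-glucan. The fungal wall is built from glucan and chitin, which are made by synthases in the plasma membrane, crosslinked by glucanosyltransferases and covered by mannoproteins. Nitrogen assimilation in this fungus runs through glutamate dehydrogenase, glutamine synthetase and glutamate synthase, and carbon catabolite repression through the zinc finger repressor CRE-1.

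Reads on genes numbered from 13241701 to 16343532 per sorbose sample and from 16079818 to 21925749 per fructose sample. Expression levels are given as normalized CPM, counts per 1000000 counts on genes after scaling with TMM factors, and genes were tested in edgeR's quasi-likelihood model of all 30 samples. Reads outside genes made up 3.02%, 8.61% and 8.79% of the records in the sorbose samples and 2.52%, 3.95% and 3.94% in the fructose samples (exact two-sided permutation test, p = 0.3, where 3 against 3 samples cannot go below 0.1). Adding this share to the model as a covariate gave 731 higher and 598 lower genes and kept 1093 of the 1284 calls (85.1%). Sorbose replicates 2 and 3 thus had a larger share outside genes than any fructose library. Alignments to several places made up 3.86% to 6.05% of the records in sorbose and 1.04% to 1.12% in fructose (p = 0.1 in the same exact test). The part of either share in the results below was not tested beyond the covariate. The housekeeping genes for actin, tubulin and a ribosomal protein were between 0.30 and 0.70 higher in sorbose on the log2 scale, with all 5 intervals within 2-fold.

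A gene was called where its levels differed by more than 2-fold and the edgeR p-value, adjusted over all genes, was below 0.01. Of 8501 genes tested, 699 were called higher in sorbose (8.22%) and 585 lower (6.88%), 15.1% in either direction. In 61.4% of all genes the 3 sorbose and 3 fructose samples did not overlap. The median log2 fold change of all genes was 0.01. More than 4-fold differences were found for 162 of the higher and 110 of the lower genes, and more than 8-fold differences for 38 and 26. The 95% interval of the difference lay within 2-fold for 5616 genes (66.1%), whereas 1601 genes that were not called had intervals that reached past 2-fold. Of the gene lists read here, ribosome biogenesis had 37 of 56 genes higher in sorbose, nitrogen regulation and uptake 11 of 19 and starch and maltose use 6 of 13. Gluconeogenesis and the glyoxylate cycle had 5 of 7 genes lower, and peroxisomes and fatty acid oxidation 13 of 35. Cell wall protein genes were called in both directions, 8 higher and 3 lower of 21.

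**Figure D1:**
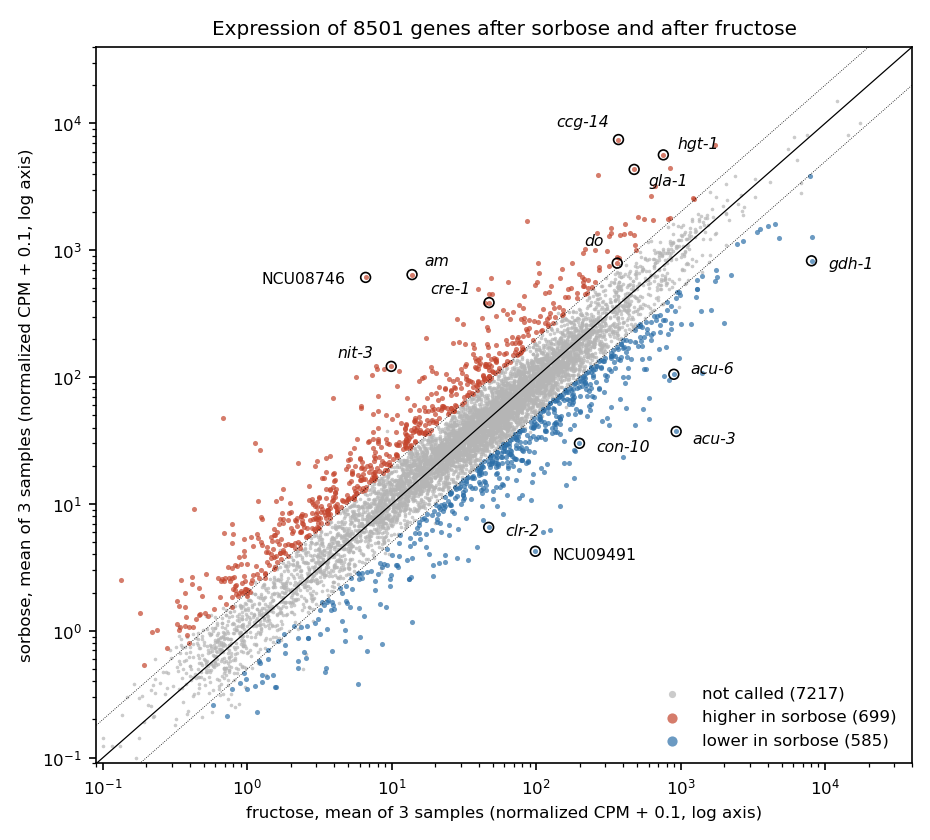
Mean normalized CPM of each of 8501 genes over the 3 fructose samples (horizontal) and the 3 sorbose samples (vertical), both with 0.1 CPM added and on log axes. The solid line marks equal levels and the dotted lines a 2-fold difference. Red points are the 699 genes called higher in sorbose and blue points the 585 called lower. Circled genes include *ccg-14* and *am* far above the line and *gdh-1* and *acu-3* far below it.

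The cell wall protein genes differed in both directions. Of 21 measured genes for wall proteins, 8 were higher in sorbose (38.1%, against 8.22% of all genes) and 3 were lower (14.3%, against 6.88%), with a median log2 fold change of 0.59. The non-anchored wall protein gene *ncw-1* stood at 5090, 4339 and 3811 CPM in the 3 sorbose samples and at 819, 1114 and 581 CPM in the 3 fructose samples. Its groups did not overlap and its log2 fold change was 2.40 ± 0.35 (SE). The anchored wall protein gene *acw-4* had 2911, 3489.8 and 3167 CPM in sorbose against 577, 850.3 and 559.9 CPM in fructose, a log2 fold change of 2.27 ± 0.23. *ncw-3*, a further gene of this family, rose from 626 ± 355 to 2689 ± 196 CPM (SD, n = 3).

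*ccg-13*, a clock-controlled gene, stood at 4930.3, 3932 and 2983 CPM in sorbose and at 188, 508 and 110 CPM in fructose. The fructose samples of *ccg-13* were widely spread, and its log2 fold change of 3.88 ± 0.89 lost the call when replicate 1 of both sugars was left out (3.47) and was 4.73 without replicate 2. *ncw-5* was also higher, by 3.12 ± 0.70, as were *acw-5* (1.19 ± 0.21) and *acw-8* (1.25 ± 0.31). *acw-8* was not called without fructose replicate 1 (1.09) or fructose replicate 3 (1.08). NCU00399, annotated as the wall protein PhiA, had a log2 fold change of 3.99 ± 0.72 that rested in part on 1 library. Its 3 sorbose samples stood at 248, 77.2 and 42.9 CPM, and without sorbose replicate 1 the value was 2.95.

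*ncw-2* and *ncw-6*, which were 2 of the 3 genes called lower, moved the other way. *ncw-2* had 38.7, 35.6 and 32.4 CPM in sorbose and 172, 126 and 139 CPM in fructose (log2 fold change -2.03 ± 0.18), and *ncw-6* fell by 2.09 ± 0.35. The wall protein genes thus did not move as a block. Most of the members that were higher in sorbose also had their highest mean of all 10 carbon sources there: this held for 9 of the 21 genes (42.9%), compared with 842 of 8501 genes (9.9%) overall. Among those 9 were the 8 genes called higher.

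Genes for the synthesis of glucan and chitin were higher or little changed. Of 20 measured genes, 5 were higher in sorbose (25%, against 8.22% of all genes), 0 were lower, and the median log2 fold change was 0.62. *do*, which encodes the catalytic subunit of the β-glucan synthase (chromosome VII, 600470 to 608294 in the RefSeq assembly NC12), stood at 795, 798 and 778 CPM in sorbose and at 343, 399.9 and 348 CPM in fructose. Each group was tight, the groups were far apart, and the difference was 2.17-fold (log2 fold change 1.12 ± 0.10, edgeR adjusted p = 4.2e-09). The glucanosyltransferase genes *gel-3* and *gel-4*, whose products lengthen and crosslink β-glucan, were higher by 1.71 ± 0.18 and 1.37 ± 0.20. *gel-3* had 1529, 1294 and 1172 CPM in sorbose and 484, 396 and 345 CPM in fructose. Neither *gel-1* at -0.24 nor *gel-5* at 0.04 was called.

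NCU02478, annotated as the α-glucan synthase Ags2, showed the widest gap of this group. It stood at 114.6, 112.2 and 106 CPM in sorbose and at 14.9, 23.2 and 18.8 CPM in fructose, a 5.85-fold difference (log2 fold change 2.55 ± 0.13). Of the chitin synthase genes, *chs-5* was higher by 1.15 ± 0.09, whereas *chs-4* (0.66 ± 0.10) and *chs-1* (0.19 ± 0.08) stayed under the fold threshold. NCU04350, a further chitin synthase gene, lay at the threshold with 1.00 ± 0.09 and was called in some of the alternative fits, among them the replicate block over the 6 samples. *gfa1*, which encodes the first enzyme of the pathway to the chitin precursor, had 1679, 1374 and 1520 CPM in sorbose and 972, 1039 and 1004 CPM in fructose. Its log2 fold change of 0.60 ± 0.09 was below the call. As for the wall proteins, 9 of these 20 genes (45%) had their highest mean of the 10 carbon sources in sorbose. For *do* the sorbose mean of 791 CPM was close to the trehalose mean of 752 CPM, and these neighbours were not tested against each other.

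**Figure D2:**
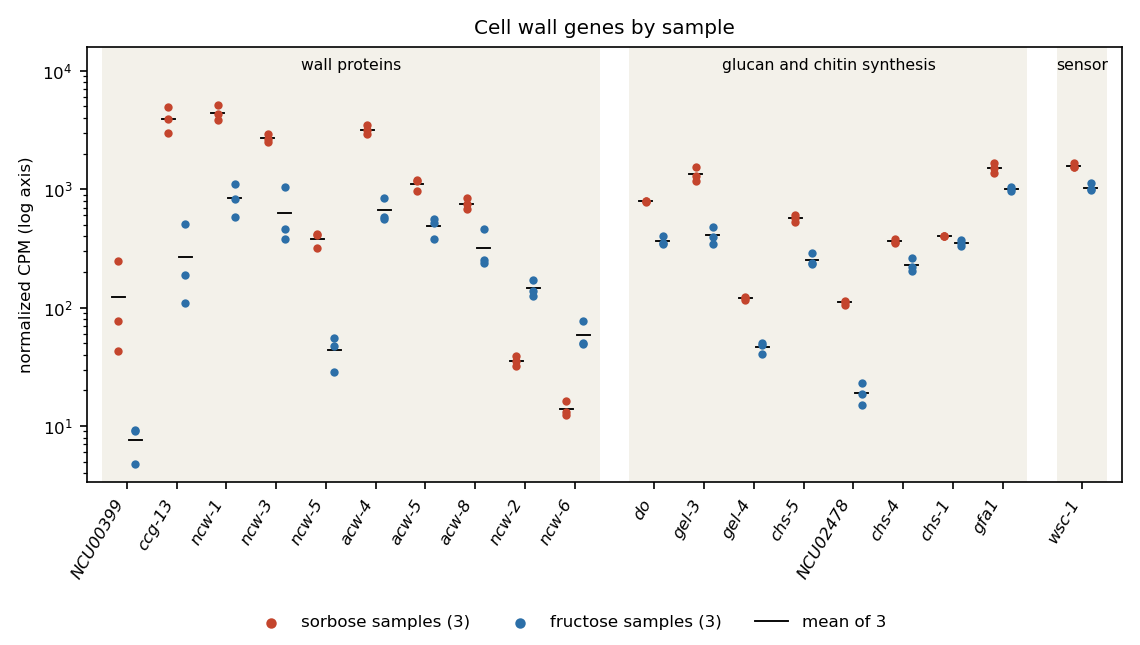
Normalized CPM (log axis) of 19 genes of the cell wall in each of the 3 sorbose samples (red) and 3 fructose samples (blue), with the mean of 3 as a line. The groups did not overlap for any of the genes drawn. *ncw-2* and *ncw-6* are the 2 drawn genes with lower levels in sorbose.

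Enzymes that cut chitin and glucan showed no shift as a group, with a median log2 fold change of 0.03 over 24 genes. Of these, 3 were higher (12.5%, against 8.22% of all genes) and 1 was lower (4.17%, against 6.88%). The call of the single lower gene, *chit-1*, was lost without any 1 of the sorbose libraries and without fructose replicate 1. NCU09904, annotated as a glucan glucosidase, rose from 7.78 ± 3.81 to 116 ± 7.16 CPM (SD, n = 3; log2 fold change 3.90 ± 0.39). The exo-β-glucanase gene NCU04850 was higher by 2.11 ± 0.26 and the chitosanase gene NCU02909 by 1.86 ± 0.21.

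The cell wall integrity pathway, which passes wall stress from surface sensors to a MAP kinase cascade, had 0 of its 6 measured genes called, and all 6 intervals lay within 2-fold. In 4 of the 6 genes every sorbose sample was above every fructose sample, compared with 31.1% of all genes. In the other 2 every sorbose sample was below every fructose sample, compared with 30.3% of all genes. The sensor gene *wsc-1* stood at 1667, 1532 and 1553 CPM in sorbose and at 994, 1127 and 977 CPM in fructose, a log2 fold change of 0.62 ± 0.09 that was below the call.

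Most genes on a list drawn from mutants with colonial growth or with resistance to sorbose changed little in their own expression level. The list does not hold *do*, which was called higher as described above. Of 15 measured genes 1 was higher (6.67%, against 8.22% of all genes), which was *col-26*, and 0 were lower. The intervals of the other 14 lay within 2-fold. *sor-4*, a glucose transporter homolog whose mutants resist sorbose, stood at 138, 135 and 133 CPM in sorbose and at 128, 143 and 123 CPM in fructose. These groups overlapped, and the 95% interval of its log2 fold change of 0.04 ran from -0.15 to 0.23. *cot-1*, which encodes the kinase that maintains hyphal tip extension, was lower by less than the threshold: 176, 171 and 173 CPM against 239, 251 and 264 CPM, a log2 fold change of -0.54 ± 0.09. The sorbose mean of *cot-1* was the lowest of the 10 carbon sources.

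Nitrogen genes showed the most contrasting pair of the comparison. *am* encodes the NADP-specific glutamate dehydrogenase, which fixes ammonium into glutamate (chromosome V, 3200862 to 3203095). It stood at 684, 617 and 625 CPM in sorbose and at 20.6, 6.75 and 13.7 CPM in fructose, a 46.8-fold difference (log2 fold change 5.55 ± 0.41, edgeR adjusted p = 1.4e-10). *gdh-1* encodes the NAD-specific glutamate dehydrogenase, which runs in the direction of glutamate breakdown (chromosome III, 3944102 to 3949450). It stood at 821, 840.1 and 813 CPM in sorbose and at 5077, 12620.0 and 6471 CPM in fructose, 9.77-fold lower in sorbose (log2 fold change -3.29 ± 0.44). The sorbose samples were nearly alike for both genes, whereas the fructose samples were spread widely.

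Of 19 measured genes for nitrogen regulation and uptake, 11 were higher in sorbose (57.9%, against 8.22% of all genes). A further 2 were lower (10.5%, against 6.88%), and the median log2 fold change was 1.33. The glutamine synthetase genes *gln-1* and *gln-2* were both higher, by 1.66 ± 0.15 and 2.36 ± 0.20. *gln-2* stood at 1483, 1359.8 and 1239 CPM in sorbose and at 359, 202 and 234 CPM in fructose, and these were the highest and the lowest mean of the 10 carbon sources. *en(am)-2*, which encodes glutamate synthase, was higher by 1.98 ± 0.31 (478, 453 and 439 CPM against 150.2, 77.3 and 119 CPM). The 3 enzymes that bring ammonium into glutamate and glutamine thus moved in the same direction.

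The nitrate and nitrite reductase genes followed, whereas *nit-10* and *nit-4* did not. The mean of *nit-10* was 31.9 CPM in sorbose and 40.8 CPM in fructose, and that of *nit-4* was 21.8 CPM and 20.6 CPM. *nit-3*, the nitrate reductase gene, had 87.7, 143 and 133 CPM in sorbose and 8.3, 9.3 and 11.8 CPM in fructose (log2 fold change 3.63 ± 0.22). *nit-6*, the nitrite reductase gene, was higher by 2.23 ± 0.38. The ammonium transporter genes NCU03257 and NCU01065 were higher by 3.56 ± 0.22 and 1.76 ± 0.16, the uracil permease gene NCU07334 by 2.59 ± 0.23, and the basic amino acid permease gene *pmb* by 1.33 ± 0.22. *cpc-1*, which encodes the activator of cross-pathway control of amino acid synthesis, was higher by 1.13 ± 0.17.

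The regulators of these genes moved less than their enzymes. *nit-2*, the GATA activator of nitrogen catabolism, had 139, 133 and 130.3 CPM in sorbose and 80.2, 55.7 and 68.9 CPM in fructose, a log2 fold change of 0.97 ± 0.14 that passed the adjusted p but not the fold threshold. It was called without fructose replicate 1 (1.09). *vib-1*, a transcription factor gene of nutrient sensing, was at 0.72 ± 0.16. *nmr*, the gene of the nitrogen metabolite repressor, was lower in sorbose with 95.3, 109.8 and 95.7 CPM against 147, 276 and 211 CPM (log2 fold change -1.07 ± 0.18), and was not called without fructose replicate 2 (-0.84).

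**Figure D3:**
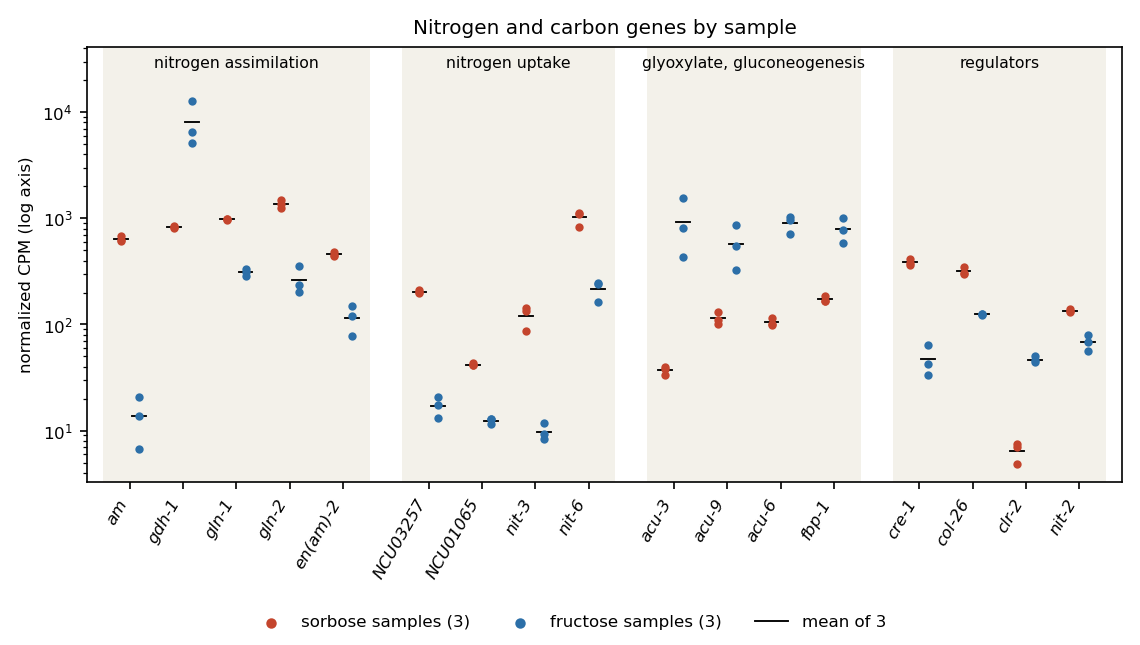
Normalized CPM (log axis) in each of the 3 sorbose samples (red) and 3 fructose samples (blue) for genes of nitrogen assimilation, nitrogen uptake and reduction, the glyoxylate cycle and gluconeogenesis, and 4 regulators, with the mean of 3 as a line. *am* is high and *gdh-1* low in sorbose, and the 4 genes of the glyoxylate cycle and gluconeogenesis are all lower in sorbose without overlap.

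Several genes for starch-degrading enzymes were higher in sorbose although neither culture held starch or maltose. Of 13 measured genes for starch and maltose use, 6 were higher (46.2%, against 8.22% of all genes). Another 2 were lower (15.4%, against 6.88%), and the median log2 fold change was 0.54. NCU08746, the starch-active lytic polysaccharide monooxygenase, had the largest rise among the annotated genes. It stood at 723, 536 and 571 CPM in sorbose and at 8.76, 5.97 and 4.72 CPM in fructose, a 93.5-fold difference (log2 fold change 6.55 ± 0.30, edgeR adjusted p = 9.8e-14). The glucoamylase gene *gla-1*, whose product releases glucose from starch, had 5189, 3963 and 3851 CPM in sorbose and 582, 419.6 and 428 CPM in fructose (3.19 ± 0.26). The α-amylase gene NCU09805, named *gh13-2* in RefSeq but *gh13-1* in the text of the paper, was higher by 3.84 ± 0.20, the amylase gene *gh13-6* by 1.65 ± 0.18 and the α-glucosidase gene *gh31-3* by 1.28 ± 0.16. Another pair of α-glucosidase genes was lower, *gh31-1* by -3.14 ± 0.28 on the log2 scale and *gh13-4* by -1.32 ± 0.20. The trehalase gene *tre-1* was higher by 1.29 ± 0.19.

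For these genes sorbose was not the extreme of the series. The sorbose mean of *gla-1* (4334 CPM) was below those of maltose (8617 CPM) and trehalose (6835 CPM), and the same held for NCU08746 (610.3 CPM, against 2182 CPM in maltose and 707 CPM in trehalose). In fructose both were near the levels of glycerol and mannose.

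Regulators of carbon use differed as well. *cre-1*, which encodes the repressor of carbon catabolite repression, was 8.21-fold higher in sorbose, with 414, 367 and 378 CPM against 64.5, 33.7 and 42.9 CPM (log2 fold change 3.04 ± 0.21). *col-26*, which encodes the transcription factor needed for growth on starch and named for its colonial mutant, was 2.54-fold higher, with 345, 300.4 and 308 CPM against 125, 126 and 124 CPM (1.35 ± 0.12). *clr-2*, the activator of cellulase genes, was lower, with 7.02, 7.41 and 4.86 CPM against 44.1, 45.9 and 50.1 CPM (-2.86 ± 0.29). The groups did not overlap for any of the 3 genes. *tah-3* was higher by 1.13 ± 0.16 but was not called without fructose replicate 1 (0.96). In all, 3 of 12 measured regulators of plant wall degradation and repression were higher (25%, against 8.22% of all genes) and 1 was lower (8.33%, against 6.88%).

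Gene sets that the study defined from other comparisons, in which neither sorbose nor fructose entered, were read against the same background. Of its COL-26-dependent genes, which fell in a *col-26* deletion strain on amylose and maltose, 187 of 362 tested were higher in sorbose (51.7%, against 8.22% of all genes) and 7 were lower (1.93%), with a median log2 fold change of 1.06. The paper reports that most genes of this set were also lower in WT cells given no carbon source. The ribosome biogenesis genes described below share 42 members with this set, 75% of that list and 11.602% of the set. Of the 320 genes of the set outside that list, 153 were higher. The set also holds 10 of the 19 nitrogen genes (7 of these higher) and 4 of the 13 starch and maltose genes (4 higher). It shares 5 of the 21 wall protein genes (3 higher), so these counts rest in part on the same genes. Of the starch regulon 99 of 322 were higher (30.7%) and 15 lower (4.66%). The maltose-inducible genes, with 81 of 733 higher (11.1%) and 51 lower (6.96%), were near the background. Of the genes that rose in the deletion strain, 74 of 421 were lower in sorbose (17.6%, against 6.88%) and 28 were higher (6.65%). The last number was 17 without fructose replicate 3.

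Sugar transporter genes were split, with 4 of 24 higher (16.7%, against 8.22% of all genes) and 5 lower (20.8%, against 6.88%). Without replicate 3 of both sugars 2 were higher. *hgt-1*, a high-affinity glucose transporter gene (chromosome VII, 1305454 to 1307833), stood at 6150, 5723 and 5060.1 CPM in sorbose and at 922, 631 and 724 CPM in fructose, a 7.44-fold difference (log2 fold change 2.90 ± 0.22). Its sorbose mean was the highest of the 10 carbon sources, with maltose next (5644 against 4968 CPM). NCU04537, a monosaccharide transporter gene, was higher by 2.61 ± 0.39 and the xylose transporter gene *xyt-1* by 1.67 ± 0.39, a call lost without replicate 2 or replicate 3 of both sugars. NCU06358 lay close to the threshold (1.03 ± 0.23) and was not called without sorbose replicate 2 (0.99) or fructose replicate 3 (0.91). The cellodextrin transporter gene *cdt-2* was lower (20.4, 19.9 and 16.9 CPM against 129.8, 97.3 and 98 CPM, -2.51 ± 0.24), as were the cellobionic acid transporter gene *cbt-1* (-1.66 ± 0.24), the monosaccharide transporter gene NCU01132 (-2.76 ± 0.22), NCU09358 (-1.61 ± 0.15) and NCU00821 (-1.40 ± 0.15). The cellodextrin transporter gene *cdt-1* was at 0.46 ± 0.21.

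Most genes of the routes that rebuild sugar from acetyl-CoA were lower in sorbose. Of 7 measured genes of gluconeogenesis and the glyoxylate cycle, 5 were lower (71.4%, against 6.88% of all genes) and 0 were higher, with a median log2 fold change of -2.19. *acu-3*, the isocitrate lyase gene at the entry of the glyoxylate cycle (chromosome V, 5289251 to 5292173), stood at 39.6, 33.6 and 38.2 CPM in sorbose and at 1554, 432 and 807 CPM in fructose. The fructose samples differed by more than 3-fold, and still each was above every sorbose sample by over 10-fold. The difference was 25.1-fold (log2 fold change -4.65 ± 0.74), the largest fall among the annotated genes, and the sorbose mean was the lowest of the 10 carbon sources. The malate synthase gene *acu-9* fell by 2.33 ± 0.34 on the log2 scale. *acu-6*, the phosphoenolpyruvate carboxykinase gene, had 98.9, 100.3 and 116 CPM in sorbose and 1025, 709.5 and 955 CPM in fructose (-3.09 ± 0.35), and *fbp-1*, the fructose bisphosphatase gene, had 184, 168 and 166 CPM against 1015, 586 and 769 CPM (-2.19 ± 0.28).

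Part of the genes of peroxisomes and fatty acid oxidation were lower too. Of 35 measured genes 13 were lower in sorbose (37.1%, against 6.88% of all genes) and 0 were higher. The median log2 fold change was -0.88. In 27 of the 35 every sorbose sample was below every fructose sample, compared with 30.3% of all genes. The carnitine acetyl transferase gene NCU01611, whose product moves acetyl units between organelles, had 99, 93.9 and 93.5 CPM in sorbose and 1243, 464 and 777 CPM in fructose (-3.12 ± 0.53). The acyl-CoA dehydrogenase genes *acd-1* and *acd-2* were at -1.72 ± 0.25 and -1.53 ± 0.26, the thiolase gene NCU09646 at -1.42 ± 0.23, and *fox-2*, the multifunctional enzyme of peroxisomal β-oxidation, at -1.45 ± 0.22. *pex11*, a gene of peroxisome division, was at -1.10 ± 0.16, and was not called without fructose replicate 1 (-0.99). In fructose 10 of the 35 genes (28.6%) had their highest mean of the 10 carbon sources, compared with 556 of 8501 genes (6.54%).

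Central carbon genes outside these routes changed less. Of 12 measured genes for hexose phosphorylation and glycolysis 1 was lower (8.33%, against 6.88% of all genes) and 0 were higher. The lower gene was the mannose phosphate isomerase gene NCU02322 (-1.81 ± 0.20). Without fructose replicate 1, 2 were higher, and without sorbose replicate 1 or fructose replicate 2 or 3, 2 were lower. Of 25 genes listed for the tricarboxylic acid cycle 5 were lower (20%, against 6.88% of all genes) and 1 was higher (4%, against 8.22%). The higher gene was *lys-6*, which is counted again below with lysine synthesis. The 5 became 2 without fructose replicate 1 and 3 without sorbose replicate 2 or 3. *tca-2* stood at -2.66 ± 0.40, beside the methylisocitrate lyase gene NCU02481 at -2.91 ± 0.44, its neighbour on chromosome I. Of 5 genes of ethanol fermentation 3 were lower (60%, against 6.88% of all genes). Among them were *ilv-5*, annotated as pyruvate decarboxylase (-1.62 ± 0.20), and the aldehyde dehydrogenase gene NCU03415 (1374, 1274 and 1190.1 CPM against 10422, 5934 and 8025 CPM, -2.67 ± 0.48). The alcohol dehydrogenase gene *adh-1* was at -1.27 ± 0.49 and not called, but it was called in the fit of the 6 samples alone, both without (-1.27) and with the replicate block (-1.24). Of 53 genes of the respiratory chain and ATP synthase 1 was lower (1.89%) and 0 were higher. The call was lost without sorbose replicate 2 or 3 or fructose replicate 1, and 46 intervals lay within 2-fold.

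Some genes for enzymes that degrade plant cell walls were lower in sorbose. Of 35 tested cellulase and hemicellulase genes 9 were lower in sorbose (25.7%, against 6.88% of all genes), 0 were higher and 26 were not called. This count fell to 5 without sorbose replicate 1 or 3 and to 4 without fructose replicate 2. The xylanase gene *gh10-3* had 1.99, 3.74 and 1.97 CPM in sorbose and 11.8, 14 and 14.3 CPM in fructose (-2.39 ± 0.27). The polysaccharide monooxygenase gene *gh61-2* was at -2.14 ± 0.33. The xylanase gene *gh11-2* was at -2.53 ± 0.58 and at -1.84 without fructose replicate 2, in which case it was not called, and the xylanase gene *gh10-1* (-2.89 ± 0.78) lost its call with any 1 of 4 libraries left out. The cellobiohydrolase gene *cbh-1* was at -0.39 ± 0.36, with an interval from -1.14 to 0.36. The feruloyl esterase gene NCU09491, whose product cuts ferulic acid from xylan, had 4.51, 3.38 and 4.51 CPM in sorbose and 80.8, 113.8 and 101 CPM in fructose, a 23.7-fold difference (-4.57 ± 0.53). The xylose reductase gene *xr* (-2.05 ± 0.31) and the xylulose kinase gene *xyk-1* (-1.45 ± 0.17) were lower too.

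Ribosome biogenesis genes were mostly higher. Of 56 measured genes, 37 were higher in sorbose (66.1%, against 8.22% of all genes), 1 was lower (1.79%), and the median log2 fold change was 1.39. In 48 of the 56 every sorbose sample was above every fructose sample, compared with 31.1% of all genes. NCU03952, which encodes the small nucleolar protein Mpp10, had 22.4, 18.6 and 18 CPM in sorbose and 2.83, 3.13 and 2.57 CPM in fructose (2.79 ± 0.22), and the gene of nucleolar GTP-binding protein 1, NCU05289, had 23.4, 23 and 22.5 CPM against 3.85, 3.43 and 2.98 CPM (2.74 ± 0.25). NCU03396, the gene of the nucleolar protein nop-58, which takes part in the methylation of ribosomal RNA, was higher by 2.31 ± 0.22, and NCU01502 by 3.32 ± 0.28. The exception was NCU02428, annotated as nucleolar essential protein 1, with 24.9, 27 and 21.4 CPM against 69.7, 61.2 and 66.9 CPM (-1.43 ± 0.11). Sorbose was not the extreme here either, since it had the highest mean of the 10 carbon sources for 1 of the 56 genes.

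The structural proteins of the ribosome were not called. Of 70 cytosolic ribosomal protein genes 0 were higher and 0 were lower, 63 intervals lay within 2-fold, and the median log2 fold change was 0.38. The summed level of these genes nevertheless ran from 50820 to 56726 CPM in sorbose and from 38639 to 43727 CPM in fructose, without overlap. Genes of amino acid synthesis were mostly unchanged in level. Of 62 genes 8 were higher (12.9%, against 8.22% of all genes) and 2 lower (3.23%, against 6.88%). The genes called higher belonged to the synthesis of arginine (*arg-1*, *arg-3* and *arg-13*), lysine (*lys-3* and *lys-6*) and the branched-chain amino acids (*ilv-2*, *ilv-6* and *leu-2*), and the largest values were 2.23 ± 0.26 for *arg-3* and 2.19 ± 0.24 for *lys-3*. *leu-2* (1.48) was not called without fructose replicate 2 (1.15), without replicate 3 of both sugars (1.39) or in the fit of the 6 samples alone (1.49). The count of 8 became 14 without fructose replicate 1, and the count of 2 became 4 without fructose replicate 2.

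Few proteasome genes were called. Of 24 genes 2 were lower (8.33%, against 6.88% of all genes, and 1 gene without sorbose replicate 2 or 3 or fructose replicate 1) and 0 were higher (1 without fructose replicate 1), but the median log2 fold change was -0.67 and every sorbose sample was below every fructose sample in 21 of 24 genes, compared with 30.3% of all genes. With the replicate block over the 6 samples 1 gene was lower and 1 was higher. The ATPase subunit gene *rpt-3* was at -1.12 ± 0.09. *rpn-4*, a zinc finger gene, stood apart from the subunits with 106, 123 and 118 CPM in sorbose and 87.1, 34.1 and 43.9 CPM in fructose (1.07 ± 0.35), which was called without fructose replicate 1 (1.55) and with the replicate block over the 6 samples (1.18). Heat shock proteins and chaperones had 2 of 22 genes higher (9.09%, near the 8.22% of all genes), *hsp70-2* (1.83 ± 0.17) and the chaperone gene NCU00692 (1.65 ± 0.26). On the list of 10 oxidative stress genes 3 were lower (30%, against 6.88% of all genes). They were the catalase gene *cat-1* (-1.58 ± 0.20), the alternative oxidase gene *aod-3* (-1.23 ± 0.27) and *aod-2* (-1.36 ± 0.18), a regulator of alternative oxidase. None of 7 autophagy genes was called, and their 7 intervals lay within 2-fold.

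Conidiation genes served as a check of the labelled tissue, mycelia. The list has 27 genes and also holds clock-controlled genes and, with *ccg-13* and *acu-6*, members already described. Of the 27 genes 4 were higher (14.8%, against 8.22% of all genes) and 8 were lower (29.6%, against 6.88%). Their summed level overlapped between the groups, from 42573 to 45074 CPM in sorbose and from 38455 to 43386 CPM in fructose. The sum joins opposite changes: *ccg-1* had a mean of 10025 CPM in sorbose and 17448 CPM in fructose, whereas *ccg-13* had 3948 CPM and 269 CPM. Its overlap therefore does not show that the conidial content of the groups was alike. None of the 27 was at 0. Their part in the differences was not tested. *con-10*, a gene expressed late in conidiation, was lower in sorbose with 36.6, 26.5 and 26.7 CPM against 164, 243 and 190.3 CPM (-2.73 ± 0.32). The conidiation regulator genes *fl* (-1.22 ± 0.15) and *acon-3* (-1.94 ± 0.43) and the conidial separation gene *csp-1* (-1.50 ± 0.13) were lower too. The hydrophobin gene *eas*, which coats conidia, overlapped between groups with 3779, 5545 and 6117 CPM against 7914, 6344 and 5049.7 CPM (-0.32 ± 0.29). *ccg-14*, a clock-controlled gene on the same list, was among the most abundant transcripts in sorbose. It stood at 7876, 7989 and 6491 CPM there and at 252, 666 and 195 CPM in fructose, a 20.1-fold difference (4.33 ± 0.58, and 5.06 without fructose replicate 2). *ccg-4*, a pheromone precursor gene, was higher by 2.79 ± 0.45. The list for sexual development had 2 of 15 genes higher (13.3%, against 8.22% of all genes, and 1 gene without sorbose replicate 2 or fructose replicate 1). Its summed levels were 937 to 1080.1 CPM in sorbose against 708 to 791 CPM in fructose.

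Among the other genes with large differences, the phosphate transporter gene *pho-5* stood at 63.5, 78.4 and 64.2 CPM in sorbose and at 3.89, 3.91 and 3.64 CPM in fructose (4.16 ± 0.79), and the major facilitator gene NCU06341 at 297, 289.5 and 279.7 CPM against 23.9, 35.4 and 25.4 CPM (3.35 ± 0.25). On the lower side, the methanol dehydrogenase homolog NCU04078 was at -3.70 ± 0.38, the hydrolase gene NCU00985 at -3.70 ± 0.41, the short chain dehydrogenase gene NCU01861 at -3.29 ± 0.49, the lipase gene NCU04475 at -3.11 ± 0.35, the ABC transporter gene NCU04097 at -3.01 ± 0.26 and the metallo-β-lactamase family gene NCU07133 at -2.92 ± 0.24. NCU00848, a membrane protein gene, had 54.9, 14.8 and 14.3 CPM in fructose against 3.63 ± 0.78 CPM in sorbose (SD, n = 3), and its value of -2.95 became -2.003 without replicate 1 of both sugars.

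**Figure D4:**
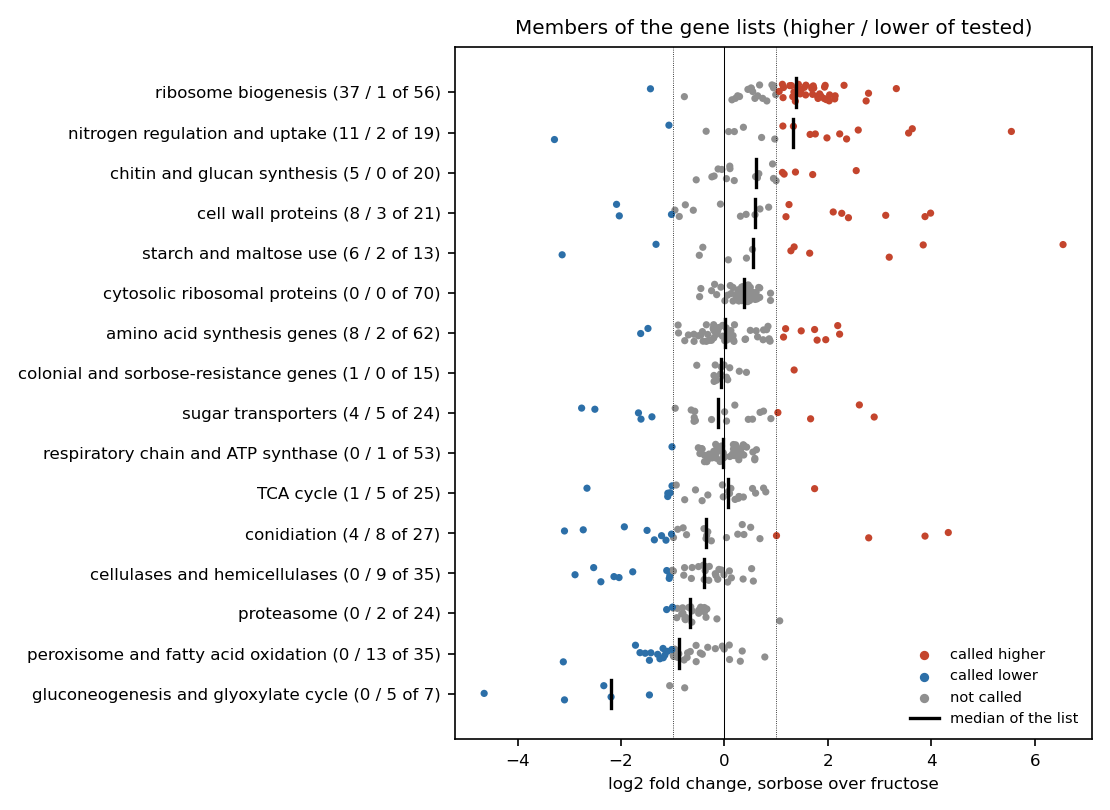
Log2 fold change (sorbose over fructose) of each tested member of 16 gene lists. Red members are called higher, blue called lower and grey not called, the black bar is the median of a list, and the dotted lines mark 2-fold. The numbers after each name are members higher and lower of those tested: ribosome biogenesis has 37 of 56 higher, and gluconeogenesis and the glyoxylate cycle 5 of 7 lower.

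The 8 other carbon sources show for part of the called genes whether the sorbose or the fructose mean lay outside the rest of the series. This is a description, since the contrast itself chose the genes. Of the 699 genes higher in sorbose, the sorbose mean was above all 8 other carbon sources for 284 (40.6%) and the fructose mean below all 8 for 111 (15.9%). Both held for 45 genes and neither for 349. Of the 585 genes lower in sorbose, the sorbose mean was below all 8 others for 165 (28.2%) and the fructose mean above all 8 for 180 (30.8%). Here both held for 31 genes and neither for 271.

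Named genes fell on either side. *ccg-14* reached 7452 CPM in sorbose, with 2606 CPM in glycerol as the next mean, and *ncw-1* 4413 CPM, with 2072 CPM in glycerol. For *am* the sorbose mean of 642 CPM lay in the upper part of the range, and the fructose mean of 13.7 CPM was next to that of mannose (10.37 CPM) at the low end. *gdh-1* gave the mirror image, with 8056 CPM in fructose and 10189 CPM in mannose. The *cre-1* mean of 47 CPM in fructose was likewise next to that of mannose (33 CPM). Neighbouring means were not tested against each other. No culture without a carbon source entered the comparison. A rise on sorbose and a fall on fructose therefore cannot be told apart in these 6 samples.

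**Figure D5:**
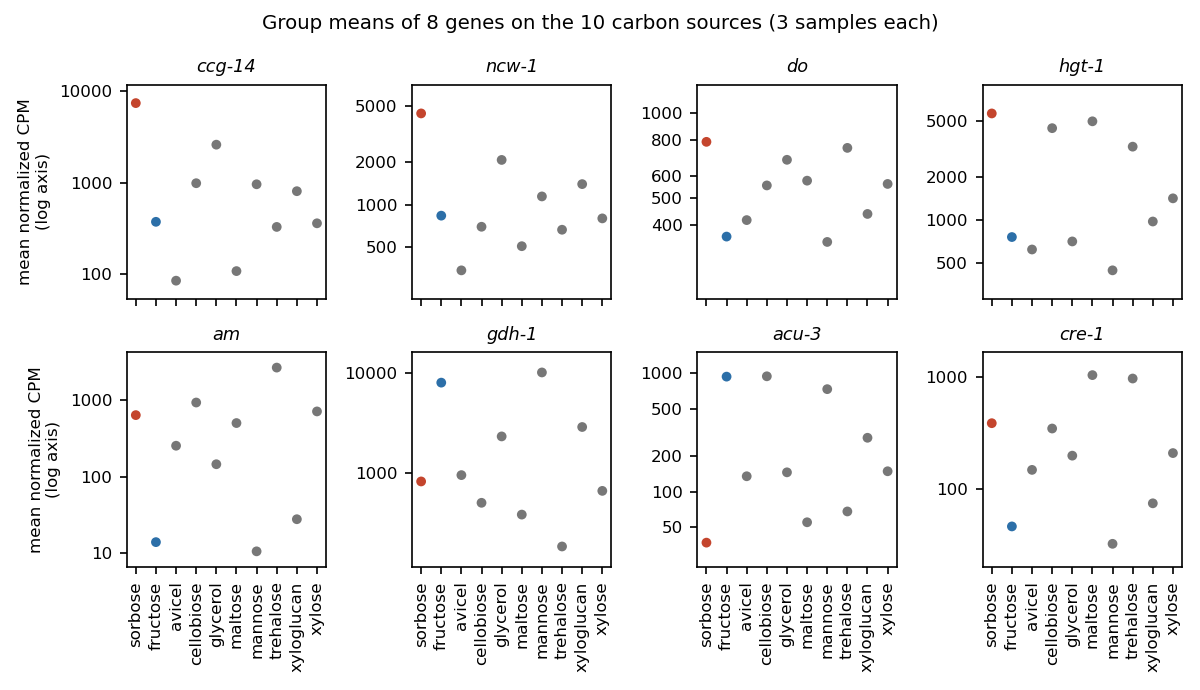
Group means (3 samples each, normalized CPM on log axes) of 8 genes on the 10 carbon sources, with sorbose in red, fructose in blue and the other 8 in grey. *ccg-14* and *ncw-1* have their highest mean in sorbose and *acu-3* its lowest there, whereas for *am*, *gdh-1* and *cre-1* it is fructose, together with mannose, that lies at the end of the range.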

How the data were processed

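Total mRNA levels of 30 cultures on 10 carbon sources were measured by RNA-seq, and the authors deposited 1 table of raw read counts per gene for each sample, with no normalization. Per the submitters' processing notes, the tools were CASAVA 1.8, TopHat2 2.0.4, HTSeq 0.6.0 and DESeq2 1.10.1. The methods name quality filtering and mapping to predicted OR74A transcripts. Whether counting used strand is not given in the sources used here, so reads of overlapping, antisense or near-identical genes cannot be told apart. The 5 totals that HTSeq lists after the genes were kept out of library sizes and tests. Of these totals, reads outside genes made up 2.52% to 8.79% of the records in the 6 samples. Ambiguous reads made up a further 1.56% to 1.9%, and alignments to several places 1.04% to 6.05%.

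Groups came from the labelled carbon source. Of 9758 genes, 8501 passed filterByExpr and were fitted with edgeR 4.0.16 (TMM factors, quasi-likelihood test, a mean per carbon source, all 30 samples) in R 4.3.3. P-values were adjusted by Benjamini-Hochberg over all tested genes, standard errors came from the F statistic and 95% intervals from its degrees of freedom. Single library measures were compared with an exact permutation test in SciPy 1.17.1. Simulated counts had 200 genes changed in sorbose, some 3-fold and some by less. Of 100 genes changed 3-fold, 96 were called with the right sign, and 0 of the unchanged genes were called, over 8428 genes. The simulation gave all genes the same spread between replicates and the carbon sources no other differences. It therefore does not measure the rate of missed or false calls in these data. Replicate numbers in the labels were checked for pairing: the deviations of same-numbered sorbose and fructose samples correlated at 0.324, 0.102 and 0.210, all above 0.1, so the numbers were taken to pair the samples. This is a weak hint from the data, since sorbose replicate 2 with fructose replicate 3 (0.131) and sorbose replicate 3 with fructose replicate 2 (0.104) correlated as highly as the weakest of them, and no label says what a number marks. The edgeR test behind the calls and standard errors has no term for the pairing, which enters only alternative fits.

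Gene names came from the RefSeq NC12 table, which matched 9757 genes and gave 1118 symbols, and from annotations in the study's supplementary tables for 4397 genes, of which many are hypothetical proteins. Lists therefore hold only annotated members. Named genes were the 14 called genes with the largest rise and the 14 with the largest fall that had at least 10 CPM in the higher group, no overlap between groups and an annotation (18 and 10 genes without one were passed over), list members, and regulators that the study names. The members, lists and tests were chosen with earlier results of these data known. The alternatives were DESeq2 1.42.0, other scalings, no filter, the 6 samples alone, a replicate block, a test against a 2-fold change, a covariate for reads outside genes, and leaving out libraries.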

Additional observations from a re-analysis of the deposited data

Results flagged for a closer look

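Alignments to several places in the transcripts, which the gene counts leave out, took a mean of 5.09% of the records in the 3 sorbose samples (3.86% to 6.05%) and 1.08% in the 3 fructose samples (1.04% to 1.12%). The groups did not overlap (p = 0.1 in a two-sided exact permutation test, which for 3 against 3 samples can go no lower). In the other 24 libraries this share ran from 0.217% to 4.08%. It drew attention because it lies outside the gene counts and was above the level of the comparison group. HTSeq counts alignments rather than reads in this total, and which genes they came from was not tested. Groups of 3 are too small for a test of single outlying samples.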

How the results depend on the processing

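The 699 higher and 585 lower genes became 272 and 148 in a test against a 2-fold change (glmTreat), where 64.8% of the calls were higher against 54.4% in the edgeR test used above. The smaller counts follow from its construction, since it asks that the fold itself, not only a difference from 0, exceed 2. The ribosome biogenesis count fell from 37 to 20 there, that of wall proteins from 8 to 3 and that of peroxisomal genes from 13 to 1. Library size without TMM factors gave 742 and 538 genes. The other fits on all 6 libraries without a block, DESeq2 among them, gave 672 to 731 higher and 572 to 610 lower genes. Leaving out 1 library, or 1 replicate number of both sugars, gave 615 to 691 higher and 509 to 575 lower genes. No called gene changed sign in any of the 18 alternatives, and 506 of the 699 and 378 of the 585 calls were kept in every one but glmTreat. Of the genes that were not called, *sor-4* ran from -0.0093 (without fructose replicate 3) to 0.11 and *eas* from -0.62 to 0.022 (without replicate 1 of both sugars) when libraries were left out; the cause was not tested.

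Under the replicate block, fits that use the pairing gave 703 higher and 578 lower genes over 30 samples and 699 and 571 over the 6, within 1.5 times of the counts without it. Of the named genes followed through every alternative, the block over 6 samples changed the calls of *adh-1*, *rpn-4* and NCU04350, and the block over 30 samples changed none.

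For 1601 genes without a call the interval reached past 2-fold, so for these genes a 2-fold difference can be neither shown nor set aside.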

Other observations

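Called genes stood side by side in 6 runs of 4 or more neighbours called in the same direction, 5 of them higher and 1 lower in sorbose, with 29 genes in all. This is a description, and how many runs the gene order alone would give was not tested. The longest run, of 7 genes, lay on chromosome VI from 3599193 to 3647731 (RefSeq assembly NC12) and began with *ncw-1*. Its log2 fold changes were 2.40 for *ncw-1*, 2.01 for NCU05136, 1.64 for NCU05135, 3.63 for NCU05134, 2.04 for NCU05133, 1.37 for NCU05132 and 2.42 for NCU05131. NCU05133 is annotated as UDP-glucose 4-epimerase, an enzyme that interconverts the nucleotide sugars of glucose and galactose. All 7 genes had their highest mean of the 10 carbon sources in sorbose.

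Many of the largest rises were in genes without an annotation. The 18 such genes passed over on the way to the 14 named rises include NCU00607, with a log2 fold change of 6.30 ± 0.37, NCU07751 at 4.87 and NCU00757 at 4.51. In 17 of the 18 the sorbose mean was the highest of the 10 carbon sources. These genes were chosen by their rise, so their rank is a description only.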
